A study of Oryctolagus cuniculus with 6 samples.

Results

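The genes described here mark the amacrine and horizontal cells of the retina and the inhibitory transmitters that these cells use. They are GAD1, GAD2, SLC32A1, SLC6A9, TFAP2A, TFAP2B, CALB1, CALB2, LHX1 and ONECUT2. They were chosen by symbol, with no measured value in the rule, although earlier results of these data were known. All 10 symbols were found among the 28788 genes of the rabbit count and FPKM tables, and all 10 passed the filter on low counts that left 18697 genes for testing. FPKM is the number of reads per kilobase of gene, scaled to a common number of counted reads, so it allows levels to be compared between genes. The retinas came from rabbits that the paper describes as adult, and the strain is not given in the sources used here. There were 3 normal retina samples and 3 samples from retinas with proliferative vitreoretinopathy (PVR), a scarring disease in which contractile membranes form on the retina. In the PVR eyes the sclera was punctured, a portion of vitreous was withdrawn and platelet-rich plasma was injected into the vitreous cavity. What was done to the normal eyes, the time of collection and the part of the retina taken are not given in the sources used here, and neither is whether each sample came from a different animal. If it did not, the p-values do not measure the spread between separate animals.

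Amacrine cells are the inhibitory interneurons of the inner retina and act on bipolar cells, ganglion cells and one another. Most of them release either GABA, which is made from glutamate by glutamate decarboxylase, or glycine. Horizontal cells lie in the outer retina, where they receive input from photoreceptors and feed back onto them. Each class is kept in its identity by transcription factors, among them the AP-2 factors in amacrine cells and LIM-homeodomain and Onecut factors in horizontal cells.

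None of the 10 genes passed the test between PVR and normal retinas. The adjusted p was between 0.14 (CALB1) and 0.994 (LHX1) with edgeR's quasi-likelihood test and Benjamini-Hochberg adjustment over all genes tested. Of all genes tested, 1.7% had an adjusted p under 0.05, and 1.01% were also past a log2 fold change of 1 in either direction. The fitted log2 fold changes of the 10 genes, PVR over normal, ran from -0.39 for CALB1 to 0.36 for ONECUT2, with a median of -0.06. The median over all genes tested was -0.01. In 8 of the 10 genes the fitted value was below 0, and in 2 it was above 0. Of all genes tested, 48.9% had a value above 0. The split depended on the scale, since with limma on FPKM in log2 4 of the 10 were below 0 and 6 above 0. The 95% interval of the log2 fold change lay between -1 and 1 in all 10 genes, which sets a bound of less than 2-fold on each difference, before any correction for the number of genes. The same held for 83.8% of the 12925 tested genes that were at least as abundant, in log2 CPM, as the lowest of the 10. With DESeq2, 9.85% of the genes given an adjusted p were under 0.05, and none of the 10 was among them. At an unadjusted p under 0.05, 2 of the 10 genes (CALB1 and ONECUT2) were counted with edgeR, against 21.2% of all genes tested. In bulk tissue, fewer cells of a type and less RNA per cell cannot be told apart.

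**Figure D1:**
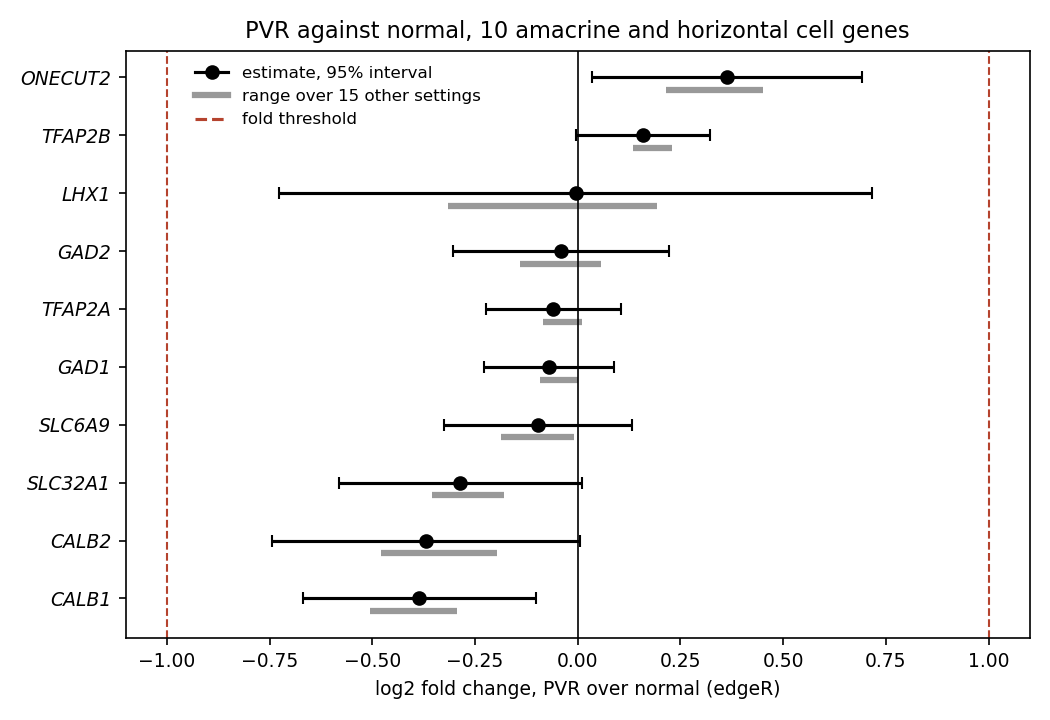
Fitted log2 fold change (PVR over normal, edgeR) of the 10 genes on the x axis, with its 95% interval as a black bar and the range over the 15 other settings as a grey bar. Every interval lies inside the dashed lines at a log2 fold change of -1 and 1, and those of CALB1 and ONECUT2 do not reach 0.

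Each sample had from 31904593 to 43035080 reads counted in genes. Rod genes were high in all samples, with a summed FPKM of 8 genes between 11661 and 18590. Normal replicates 2 and 3 each stood apart in markers of other cells. In normal replicate 2 the 11 matched lens genes had a summed FPKM of 35207, against 14.7 and 17.5 in the rest of the normal group and 289.9 to 334 in PVR. In normal replicate 3 the 10 oligodendrocyte genes, which belong to myelinated nerve fibres, had a summed FPKM of 432, against 79.9 and 191 in the rest of the normal group and 49.2 to 55.5 in PVR. With each of these libraries left out in turn, none of the 10 amacrine and horizontal cell genes had an adjusted p under 0.05, and the part of lens and oligodendrocyte RNA in their levels was not tested.

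The levels of the 10 genes spanned 2 orders of magnitude. CALB2 was the most abundant, with a mean FPKM of 143 over the 6 samples, which was higher than that of 99.1% of all genes in the files. LHX1 was the least abundant, with a mean FPKM of 0.828 and between 81 and 205 counts per sample, and CALB2 stood 173-fold above it. Between them, in falling order, came SLC6A9 (32.8), GAD1 (29.2), CALB1 (20.4), TFAP2B (18.2), GAD2 (13.0), SLC32A1 (12.2), TFAP2A (10.5) and ONECUT2 (2.85), given as mean FPKM over the 6 samples. CALB2 was above SLC6A9, GAD1 above CALB1, TFAP2B above GAD2, TFAP2A above ONECUT2, and ONECUT2 above LHX1 in all 6 samples. The other neighbours changed places. SLC6A9 was above GAD1 in 5 of 6 samples, GAD2 above SLC32A1 in 4, and SLC32A1 above TFAP2A in 5. CALB1 was above TFAP2B in all 3 normal samples and in 1 of 3 PVR samples.

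**Figure D2:**
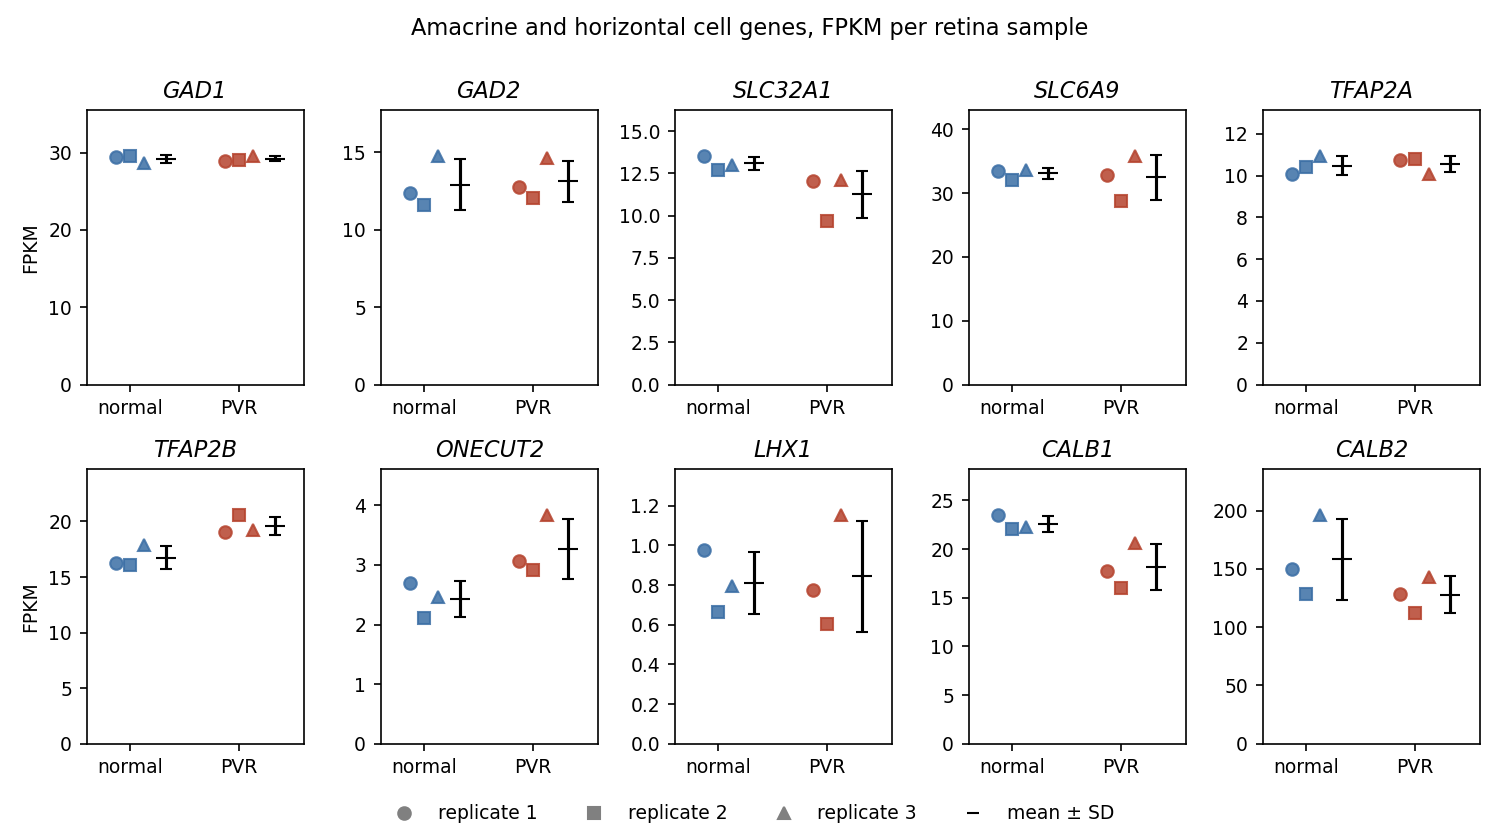
FPKM (y axis, from 0) of each of the 10 genes in the 3 normal and 3 PVR samples, with 1 symbol per replicate and the mean ± SD beside them in black. GAD1 is between 28.6 and 29.6 in all samples, whereas the PVR samples lie below every normal sample for CALB1 and SLC32A1 and above every normal sample for TFAP2B and ONECUT2.

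Both forms of glutamate decarboxylase, the enzyme that makes GABA, were at nearly equal levels in the 2 groups. GAD1, which encodes the larger form, found throughout the cell, had FPKM values of 29.4, 29.5 and 28.6 in normal retinas, against 28.9, 29.1 and 29.6 in PVR retinas. The groups overlapped, and no other gene of the 10 varied so little in FPKM over the 6 samples. The fitted log2 difference was -0.07 (standard error, SE, 0.07, edgeR adjusted p = 0.579), with a 95% interval from -0.23 to 0.09. GAD2, the smaller form, enriched at synaptic terminals, had FPKM values of 12.3, 11.6 and 14.7 in normal retinas, against 12.7, 12.0 and 14.6 in PVR retinas. Replicate 3 was the highest in each group. For GAD2 the fitted log2 difference was -0.04 (SE 0.11, edgeR adjusted p = 0.856), with a 95% interval from -0.30 to 0.22. The sign of these small differences turned with the scale, since the ratio of the mean FPKM of PVR to normal was 1.001 for GAD1 and 1.02 for GAD2.

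SLC32A1 and SLC6A9 encode the transporters that handle the inhibitory transmitters. SLC32A1, the vesicular transporter that loads GABA and glycine into synaptic vesicles, had FPKM values of 13.5, 12.7 and 13.0 in normal retinas, against 12.0, 9.66 and 12.1 in PVR retinas. Every PVR sample was below every normal sample, and PVR replicate 2 was the lowest. The mean FPKM was 13.1 ± 0.409 (SD, n = 3) in normal and 11.3 ± 1.38 (SD, n = 3) in PVR retinas. For SLC32A1 the fitted log2 difference was -0.29 (SE 0.13, edgeR adjusted p = 0.247), with a 95% interval from -0.58 to 0.01. It was -0.18 without PVR replicate 2. SLC6A9, the plasma membrane glycine transporter GlyT1 that marks glycinergic amacrine cells, had FPKM values of 33.5, 32.1 and 33.7 in normal retinas, against 32.8, 28.8 and 35.8 in PVR retinas. The lowest and the highest values were both PVR samples, so the groups overlapped. For SLC6A9 the fitted log2 difference was -0.10 (SE 0.10, edgeR adjusted p = 0.595), with a 95% interval from -0.33 to 0.13. It was -0.01 without PVR replicate 2 and -0.19 without PVR replicate 3.

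Of the AP-2 transcription factors of amacrine cells, TFAP2A overlapped between the groups and TFAP2B did not. TFAP2A had FPKM values of 10.1, 10.4 and 10.9 in normal retinas, against 10.8, 10.8 and 10.1 in PVR retinas. PVR replicate 3 lay with the lower normal values, and the fitted log2 difference was -0.06 (SE 0.07, edgeR adjusted p = 0.647), with an FPKM ratio of 1.01. TFAP2A is also active in the lens epithelium. Its value was 10.4 in normal replicate 2, the library with lens genes, and 10.1 and 10.9 in the other normal samples, and the part of lens cells in it was not tested. TFAP2B had FPKM values of 16.2, 16.1 and 17.9 in normal retinas, against 19.1, 20.6 and 19.2 in PVR retinas. All 3 PVR samples were above all 3 normal samples, by a small margin. The mean FPKM was 16.7 ± 1.02 (SD, n = 3) in normal and 19.6 ± 0.836 (SD, n = 3) in PVR retinas. For TFAP2B the fitted log2 difference was 0.16 (SE 0.07, edgeR adjusted p = 0.245), with a 95% interval from -0.004 to 0.32.

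The horizontal cell factors were the genes of lowest level. ONECUT2, a Onecut homeobox factor of horizontal and ganglion cells, had FPKM values of 2.71, 2.11 and 2.47 in normal retinas, against 3.06, 2.91 and 3.84 in PVR retinas. The groups did not overlap, and PVR replicate 3 stood highest. The mean FPKM was 2.43 ± 0.300 (SD, n = 3) in normal and 3.27 ± 0.498 (SD, n = 3) in PVR retinas. For ONECUT2 the fitted log2 difference was 0.36 (SE 0.14), with an edgeR p-value of 0.0344 that became an adjusted p of 0.202. Without PVR replicate 3 it was 0.22, which is smaller by more than 1.5 times. LHX1, a LIM-homeodomain factor that horizontal cells need to reach their place in the retina, had FPKM values of 0.975, 0.664 and 0.797 in normal retinas, against 0.774, 0.606 and 1.15 in PVR retinas. The PVR samples enclosed the normal ones. Its counts were 157, 112 and 132 in normal retinas, against 102, 81 and 205 in PVR retinas, and a count of 81 carries a counting error of 11.1%. For LHX1 the fitted log2 difference was -0.01 (SE 0.31, edgeR adjusted p = 0.994), with a 95% interval from -0.73 to 0.72, the widest of the 10. The ratio of its mean FPKM was 1.04, so its sign also turned with the scale, and a moderate difference in LHX1 was not detectable here.

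CALB1 and CALB2 encode calcium-binding proteins that mark retinal interneurons. CALB1, which encodes calbindin, a marker of horizontal cells and of some amacrine cells, had FPKM values of 23.5, 22.0 and 22.2 in normal retinas, against 17.7, 16.0 and 20.7 in PVR retinas. Every PVR sample was below every normal sample. The mean FPKM was 22.6 ± 0.792 (SD, n = 3) in normal and 18.1 ± 2.37 (SD, n = 3) in PVR retinas, a ratio of 0.802. For CALB1 the fitted log2 difference was -0.39 (SE 0.12), with an edgeR p-value of 0.0142 that became an adjusted p of 0.14. Over the other 15 settings its log2 fold change lay between -0.51 and -0.29 and its adjusted p between 0.0614 and 0.399. CALB2, which encodes calretinin, found in amacrine cells including the AII type and in ganglion cells, had FPKM values of 150, 128 and 196 in normal retinas, against 129, 112 and 143 in PVR retinas. The groups overlapped, and the normal samples differed among themselves by 1.53-fold. For CALB2 the fitted log2 difference was -0.37 (SE 0.16, edgeR adjusted p = 0.243), with a 95% interval from -0.74 to 0.01. It was -0.20 without normal replicate 3. The 10 ganglion cell genes listed for comparison had a median log2 difference of -0.21, and none of them had an adjusted p under 0.05. This median was -0.02 without normal replicate 3, -0.03 without PVR replicate 2 and -0.40 without PVR replicate 3. Their summed FPKM was also highest in normal replicate 3, at 733, against 524 and 519.6 in the rest of the normal group and 417 to 655 in PVR. The part of ganglion cells in the values of CALB2 was not tested.

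In all, the groups did not overlap in 4 of the 10 genes, with 2 higher and 2 lower in PVR. Of all genes tested, 28% had groups that did not overlap, 13.4% with PVR higher and 14.6% with PVR lower.

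Setting related genes against each other within a sample removes the depth of the sample. GAD1 took 69.4% ± 3.06 (SD, n = 3) of the summed FPKM of GAD1 and GAD2 in normal retinas and 69.1% ± 1.96 (SD, n = 3) in PVR retinas. CALB1 took 12.8% ± 2.33 (SD, n = 3) of the sum of CALB1 and CALB2 in normal and 12.4% ± 0.273 (SD, n = 3) in PVR retinas. SLC6A9, for glycine, took 44.0% ± 0.420 (SD, n = 3) of its sum with both glutamate decarboxylases in normal and 43.3% ± 1.90 (SD, n = 3) in PVR retinas. For these 3 shares the groups overlapped and the difference was smaller than the larger of the 2 SDs, with p from 0.8 to 0.9 in a two-sided exact permutation test. TFAP2A took 38.3%, 39.4% and 37.9% of the sum of TFAP2A and TFAP2B in normal retinas, against 36.1%, 34.4% and 34.5% in PVR retinas. All 3 PVR shares were below all 3 normal shares. LHX1 took 26.5%, 23.9% and 24.4% of the sum of LHX1 and ONECUT2 in normal retinas and 20.2%, 17.2% and 23.1% in PVR retinas, again without overlap. For both, the two-sided exact permutation test gave p = 0.1, the smallest that 3 samples against 3 allow, and 0.25 after Benjamini-Hochberg adjustment over the 5 shares compared. These differences did not pass this test, which cannot give a smaller p.

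**Figure D3:**
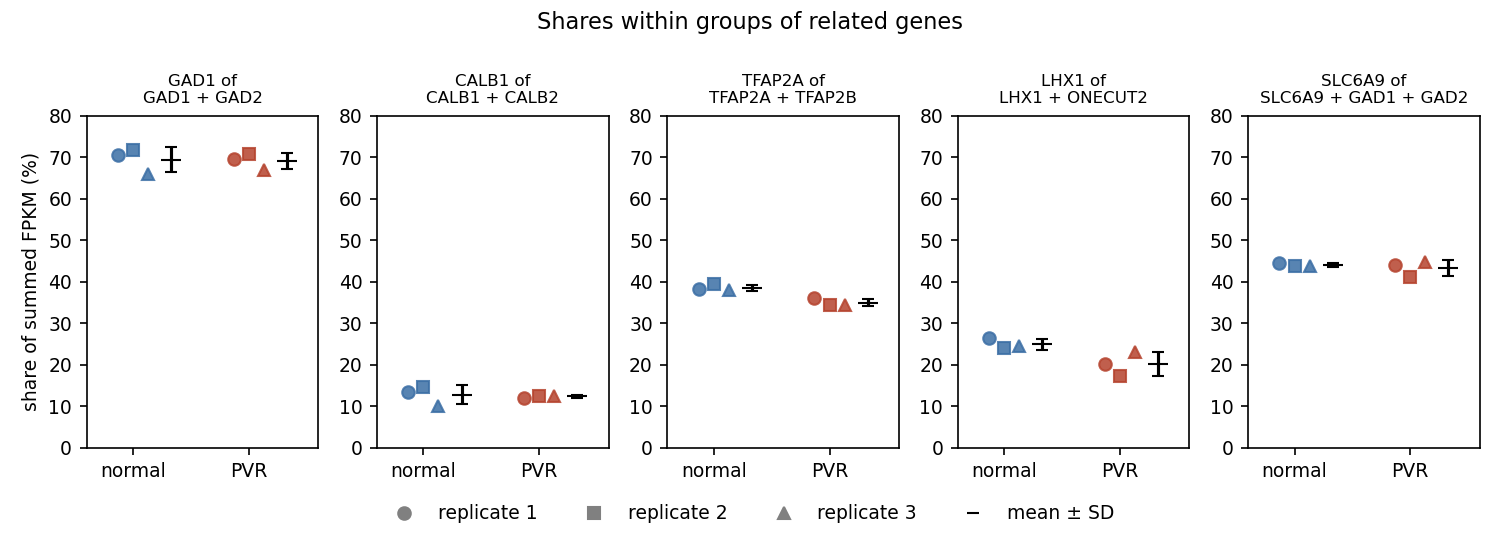
Share of the first gene in the summed FPKM of each set (y axis, percent, from 0) in the 3 normal and 3 PVR samples, with 1 symbol per replicate and the mean ± SD in black. The shares of GAD1, CALB1 and SLC6A9 overlap between the groups, whereas those of TFAP2A and LHX1 are lower in every PVR sample.

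The ratio of the highest to the lowest FPKM was larger among the PVR than among the normal samples for 5 of the 10 genes. In log2 CPM (counts scaled to a common depth with TMM), PVR replicate 3 was the highest PVR sample for 8 of the 10 genes and PVR replicate 2 the lowest for 8. The exceptions were TFAP2A and TFAP2B. TFAP2A was lowest in PVR replicate 3, and TFAP2B was highest in PVR replicate 2. The median deviation of the 10 genes from their PVR mean was -0.18 in PVR replicate 2, -0.02 in PVR replicate 1 and 0.18 in PVR replicate 3 on the log2 scale. In the normal samples it was between -0.02 and 0.01. Summed rod FPKM followed the same order, with 11661 in PVR replicate 2, 13986 in PVR replicate 1 and 15523 in PVR replicate 3, and so did the summed ganglion cell FPKM, with 417, 545 and 655. Summed microglia and macrophage FPKM ran the other way, with 57.1, 49.97 and 40.0. Whether these share a source with the 10 genes was not tested. Over the 6 samples, Pearson's r between the log2 CPM of the genes was between -0.91 (TFAP2A with ONECUT2) and 0.94 (SLC32A1 with CALB1), with a median of 0.31 over 45 pairs. These values are a description of 6 libraries in 2 groups, and every pair shares those libraries.

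**Figure D4:**
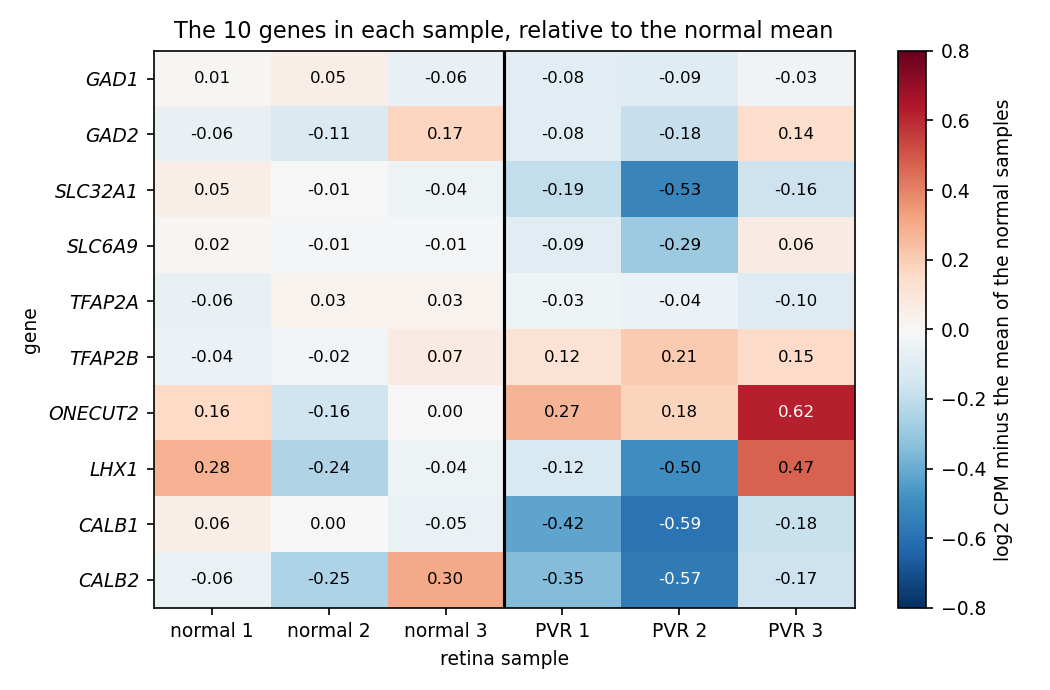
Log2 CPM of each gene (rows) in each retina sample (columns) minus the mean of the 3 normal samples, with the value written in each cell and the groups parted by a line. CALB1, CALB2, SLC32A1, GAD1 and TFAP2A are below the normal mean in all 3 PVR samples, ONECUT2 and TFAP2B above it, and PVR replicate 2 holds the lowest value of 7 of the 10 genes.

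Other genes of these cells and of inhibitory transmission were taken from 7 lists. Of 75 listed genes 70 were matched and 68 tested, and 1 of the 68 had an adjusted p under 0.05 with edgeR, or 1.47%, against 1.7% of all genes tested. At an unadjusted p under 0.05 there were 11 of 68, or 16.2%, against 21.2% of all genes tested, and with DESeq2 6 of the 67 given an adjusted p were under 0.05, or 8.96%, against 9.85% of all genes. The gene with an adjusted p under 0.05 was SEPTIN4, a septin GTPase of the cytoskeleton that is listed with horizontal cell genes but is also made in other cells. It had FPKM values of 42.1, 45.9 and 46.6 in normal retinas, against 31.2, 35.7 and 30.9 in PVR retinas. All PVR samples were below all normal samples. SEPTIN4 fell by 0.53 on the log2 scale (SE 0.08, edgeR adjusted p = 0.034), which is not past the fold threshold. The adjusted p was 0.0638 without normal replicate 1, 0.127 without normal replicate 2 and 0.223 without PVR replicate 1. With limma on log2(FPKM + 1) and log2(FPKM + 0.1) it was 0.059 and 0.0575. It was under 0.05 in 9 of the 15 other settings.

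The other 5 horizontal cell genes tested, among them the homeobox factors ONECUT1 and PROX1, did not pass the test, and the median of the list was -0.08 in log2, with 3 values above and 3 below 0. Of the 13 amacrine transcription factors tested, none passed, and the median was -0.01. The most abundant, PAX6, a factor of amacrine, horizontal and ganglion cells, had a mean FPKM of 39.7 ± 6.34 (SD, n = 3) in normal and 46.5 ± 1.93 (SD, n = 3) in PVR retinas, with a log2 fold change of 0.16 (edgeR adjusted p = 0.419). MEIS2, ISL1 and BHLHE22, which came next in level, had log2 fold changes of 0.08, -0.01 and -0.01. PTF1A, a factor of developing amacrine and horizontal cells, had no count in any sample. The upper limit that a count of 0 allows is 3 counts per library.

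Among 6 tested genes for the acetylcholine, monoamine, nitric oxide and glutamate signals of small amacrine populations, none passed, and the median log2 fold change was -0.12. SLC18A2, the vesicular monoamine transporter, was the most abundant and had a log2 fold change of -0.01. SLC17A8, a vesicular glutamate transporter, stood at 0.19. SLC5A7, which takes up choline in cholinergic starburst cells, stood at -0.23 with all PVR samples below the normal ones in CPM. In FPKM its groups overlapped, with 2.71, 2.33 and 2.86 in normal and 2.27, 2.44 and 2.36 in PVR retinas. CHAT, the enzyme that makes acetylcholine in the same cells, had FPKM values of 1.64, 1.37 and 1.56 in normal retinas, against 0.914, 0.769 and 0.876 in PVR retinas. These did not overlap, and CHAT had a fitted log2 difference of -0.90 (SE 0.18, edgeR adjusted p = 0.0612). SLC18A3, also a cholinergic gene, went the other way at 0.98 (SE 0.82, edgeR adjusted p = 0.514). Its counts were low, at 11, 7 and 1 in normal and 14, 6 and 16 in PVR retinas. None of the 8 neuropeptide genes passed, 4 having values above and 4 below 0, with a median of -0.19. The median was -0.52 with a minimum of 10 counts in every sample, and -0.32, -0.34 and -0.38 without normal replicate 1, normal replicate 2 and PVR replicate 3. CARTPT, the most abundant, had FPKM values of 46.7, 45.2 and 52.8 in normal retinas, against 29.9, 25.4 and 38.5 in PVR retinas. The fitted log2 difference was -0.69 (SE 0.16, edgeR adjusted p = 0.0783). TAC1, which encodes substance P, stood at -0.44, CCK at -0.62 and NPY at 0.10, with adjusted p from 0.148 to 0.881.

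Of the 12 tested genes that make, take up or break down GABA and glycine, none passed, and the median log2 fold change was -0.18. It was -0.06 without normal replicate 2, the library with lens genes, and -0.12 without PVR replicate 2. ABAT, which breaks down GABA, had a log2 fold change of 0.03, and SLC38A1, a glutamine transporter, stood at -0.18. On the receiving side, none of 13 tested genes for GABA and glycine receptors and their scaffold passed. Of these, 9 had values above and 4 below 0, with a median of 0.04. GPHN, the scaffold that clusters these receptors, had a mean FPKM of 16.5 ± 1.48 (SD, n = 3) in normal and 21.0 ± 0.693 (SD, n = 3) in PVR retinas, a log2 fold change of 0.27 (edgeR adjusted p = 0.147). Among 10 tested calcium-binding relatives of calbindin and calretinin none passed, and the median was -0.09. RCVRN, the photoreceptor protein recoverin, stood at -0.29, and VSNL1, NCALD and HPCAL1 at -0.06, -0.12 and -0.21.

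**Figure D5:**
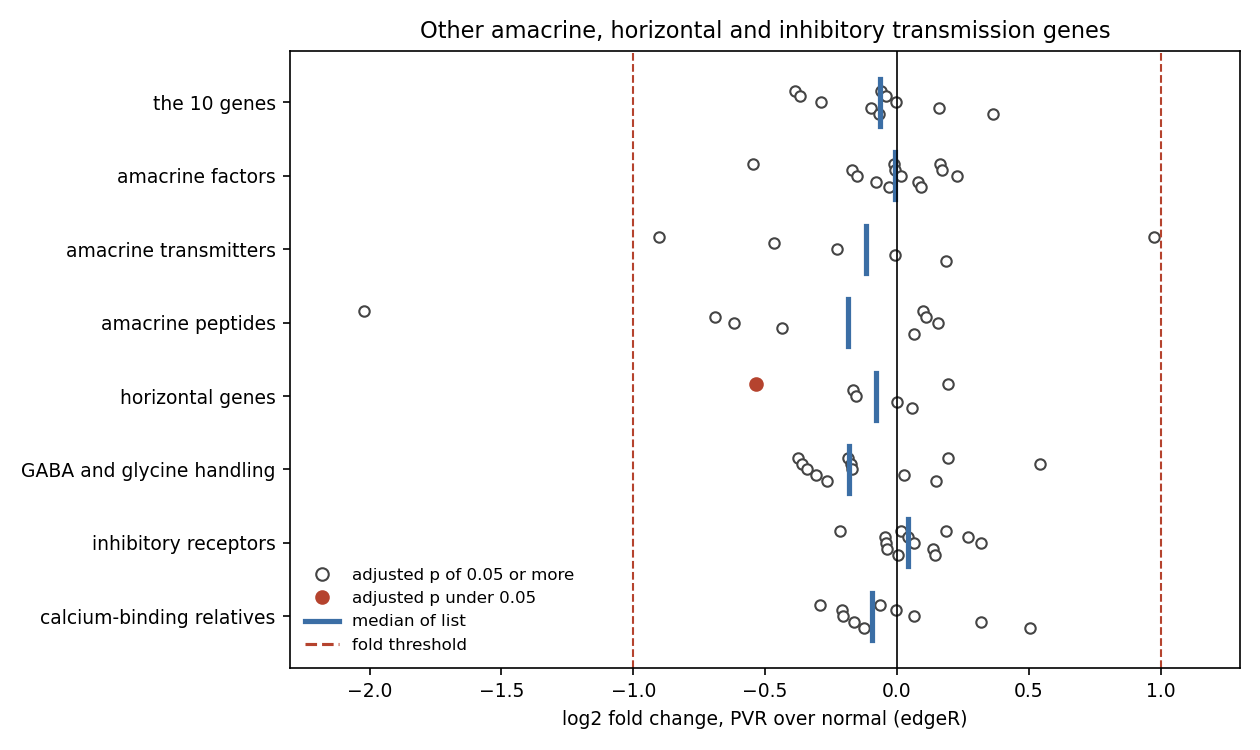
Fitted log2 fold change (PVR over normal, edgeR) on the x axis of each tested gene in the 10 genes and in the 7 lists of related genes, with list medians as blue bars and the fold threshold as dashed lines. One gene, SEPTIN4, has an adjusted p under 0.05 (filled), and the list medians lie between -0.19 and 0.04.

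Markers of other retinal cells were counted beside the 10 genes. The 8 microglia and macrophage genes all had fitted values above 0, with a median log2 fold change of 0.76 and none past the test. Leaving out normal replicate 3 gave a median of 0.47, and leaving out normal replicate 1 gave 0.97. Their summed FPKM was 14.2 in normal replicate 3, 33.9 and 35.2 in the other normal samples and 40.0 to 57.1 in the PVR samples, and none of these genes was at 0 counts. Of 8 rod genes, 7 had values below 0, with a median of -0.29 and none past the test. Of 10 bipolar cell genes, 9 had values below 0, with a median of -0.09 and none past the test. At an unadjusted p under 0.05 (21.2% of all genes tested), 4 microglia and macrophage genes, 4 rod genes and no bipolar or ganglion cell gene were counted, and DESeq2 gave an adjusted p under 0.05 (9.85% of all genes) to 2 of the microglia and macrophage genes, 2 rod genes and no bipolar or ganglion cell gene. Of 8 Mueller glia genes, 3 had values above 0 and 5 below 0, with a median of -0.10. This median was 0.009 without normal replicate 2. Of the 8, 2 fell with an edgeR adjusted p under 0.05, against 1.7% of all genes tested in either direction. They were GLUL, the glutamine synthetase that turns glutamate into glutamine, at -1.11 in log2 (SE 0.12, adjusted p = 0.0125), and RLBP1, a retinaldehyde-binding protein, at -0.89 (SE 0.13, adjusted p = 0.0294), both named after their values were seen. Of 8 tested oligodendrocyte genes, 3 fell past both thresholds and none rose, with MOBP at -5.76 (SE 0.83, adjusted p = 0.0285), SOX10 at -2.67 (SE 0.44, adjusted p = 0.0402) and MAG at -4.98 (SE 0.91, adjusted p = 0.0478). Of 6 tested pigment epithelium genes, 4 had values below 0 and 2 above 0, the highest at 0.53. Their median was -0.96, and it lay between -1.48 and -0.66 over the 15 other settings. The summed FPKM of the 8 matched genes was 137, 204 and 92.6 in normal samples and 48.8 to 57.7 in PVR samples. Past both thresholds 2 of the 6 fell. They were LRAT, which makes retinyl esters, at -2.82 (SE 0.50, adjusted p = 0.0459) and TTR, the retinol carrier transthyretin, at -1.56 (SE 0.29, adjusted p = 0.0478). These 5 genes were also named after their values were seen. Over all genes tested, 1.01% were past both thresholds. The part of these cells in the levels of the 10 genes was not tested.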

How the data were processed

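Polyadenylated RNA of rabbit retina was sequenced in 3 normal and 3 PVR samples, grouped here by their titles. Per the paper's methods, the authors used HISAT2 with OryCun2.0 as the genome, and they deposited raw counts per gene from htseq-count. The authors also deposited FPKM values, which rest on the same counts and on the total count of each sample, since counts divided by FPKM gave 1 length per gene (largest relative difference 4.24e-09). Strand setting and annotation release are not given in the sources used here, so reads from overlapping genes on opposite strands cannot be told apart.

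Tests on the counts used edgeR 4.0.16 in R 4.3.3 (default low-count filter, TMM factors between 0.953 and 1.04, quasi-likelihood test with the condition as its term). P-values were adjusted by Benjamini-Hochberg over 18697 genes, with thresholds of 0.05 and a log2 fold change of 1. The standard error is the log2 fold change divided by the square root of F, and 95% intervals use the model's degrees of freedom. The 95% intervals also hold the spread between samples that the quasi-likelihood fit estimates. The limit for a count of 0 and the counting error given for LHX1 cover counting error only. Shares were compared with SciPy 1.17.1.

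The genes and lists were chosen with earlier results of these data known. All 10 genes are named, as are listed genes with an adjusted p under 0.05 and otherwise up to 4 of the most abundant of a list, except that some of these are not reported here. Other genes named were chosen after their values were seen. Listed genes were matched by symbol or, for 5, by gene number through RefSeq's annotation of mOryCun1.1, used for names only, and 7 were not matched. The lists of other cell types hold lens, pigment epithelium, oligodendrocyte, endothelial and erythrocyte genes as well, with median log2 fold changes of -5.49, -0.96, -2.61, -0.97 and -0.66. That of the lens genes rests on normal replicate 2. The endothelial median was -0.16 with at least 10 counts in every sample and -0.14 on log2(FPKM + 1). The summed FPKM of the endothelial genes was higher in PVR, with 93.0 to 98.6 in normal and 108.6 to 112.8 in PVR samples.

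Alternatives were DESeq2 1.42.0, RLE and upper-quartile factors, no filter, a minimum of 10 counts per sample, limma-voom, limma 3.58.1 on FPKM in log2 with a pseudocount of 1 or 0.1, the replicate number as a block, and fits with 1 sample left out. Counts were simulated in 10 draws, with 200 changed genes among 18338 to 18390, to check the tests. Of the 200, edgeR recovered 152 to 165 with 4 to 15 false calls, and DESeq2 171 to 185 with 31 to 52. The planted changes were all larger than the fold threshold, in genes above a minimum mean count, and calls had to pass both thresholds. Recovery of differences as small as those fitted for the 10 genes was therefore not tested. Figures were made with matplotlib 3.10.9. Not analysed here were the reads, the qRT-PCR, the western blot and the human data.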

Additional observations from a re-analysis of the deposited data

How the results depend on the processing

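None of the 10 genes had an adjusted p under 0.05 in any of the 15 other settings. Of their 150 log2 fold changes, 133 kept their direction and 17 did not. SLC32A1, SLC6A9, CALB1 and CALB2 stayed below 0 and TFAP2B and ONECUT2 above 0 in all 15, whereas GAD1, GAD2, TFAP2A and LHX1 changed sign, for a cause that was not tested. On log2(FPKM + 1) and log2(FPKM + 0.1), GAD1 was at 0.00105 and 0.00109, GAD2 at 0.026 and 0.028, TFAP2A at 0.0099 and 0.011, and LHX1 at 0.018 and 0.023. LHX1 was at 0.0026 with DESeq2, 0.000799 with RLE factors, 0.020 with upper-quartile factors and 0.0053 with at least 10 counts in every sample. With single samples left out, GAD2 ran from -0.14 to 0.056 and LHX1 from -0.32 to 0.19. Over all genes, 129 were higher and 59 lower in PVR past the thresholds. DESeq2 gave 524 and 212, and limma on log2(FPKM + 1) gave 68 and 19. The number of lower genes was 31 with at least 10 counts in every sample and 37 with limma-voom. With single samples left out, between 16 and 373 genes were higher and between 6 and 159 lower, the fewest being without PVR replicate 1. With the replicate block 56 were higher and 26 lower, and SEPTIN4 had an adjusted p of 0.0697. The deviations of same-numbered samples had r of -0.013, 0.073 and 0.042, against -0.083 to 0.043 for the other pairings. With 3 samples per group, these values cannot tell whether the numbers pair the samples. LHX1, with 81 to 205 counts, had the lowest counts and the largest standard error of the 10 genes. The medians of the other lists of related genes lay between -0.05 and 0.09 for amacrine factors and -0.22 and -0.02 for transmitter genes. They lay between -0.15 and 0.03 for horizontal cell genes and 0.01 and 0.11 for receptors with their scaffold. For calcium-binding relatives they lay between -0.21 and -0.01.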

Other observations

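Some related genes outside the 10 came close to the threshold, and they were chosen here after their values were seen. VIP, a peptide of a small amacrine population, had 94, 130 and 185 counts in normal retinas, against 29, 44 and 17 in PVR retinas. All PVR samples were below all normal samples, and VIP had a fitted log2 difference of -2.02 (SE 0.48, edgeR adjusted p = 0.0844). Over the 15 alternatives it stayed between -2.46 and -1.03, with an adjusted p between 0.00192 and 0.298 that was under 0.05 in 1 of them, DESeq2. GLDC, which breaks down glycine in mitochondria, had FPKM values of 6.46, 8.09 and 7.001 in normal retinas, against 11.1, 11.1 and 10.8 in PVR retinas. The fitted log2 difference was 0.54 (SE 0.11, edgeR adjusted p = 0.064), and its adjusted p was between 0.00163 and 0.275 and under 0.05 in 2 of the 15 alternatives. Of the 67 listed genes that DESeq2 gave an adjusted p, 6 were under 0.05, a share of 8.96% that is not above the 9.85% of all genes, and they were CHAT, VIP, CARTPT, SEPTIN4 and RCVRN with lower and GLDC with higher values in PVR. NEUROD2, a bHLH transcription factor, had a fitted log2 difference of -0.55 (SE 0.17, edgeR adjusted p = 0.138), with all PVR samples below the normal ones.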
